A study of Mus musculus with 16 samples.

Results

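The arachidonate lipoxygenase genes of the mouse were described here across whole dorsal skin from both sexes, with and without ultraviolet B (UVB) irradiation. The family was taken as the 8 genes *Alox5*, *Alox5ap*, *Alox8*, *Alox12*, *Alox12b*, *Alox12e*, *Alox15* and *Aloxe3*, found by the Ensembl identifier of each symbol in the GENCODE annotation, and all 8 were among the 55359 genes of the count tables. The study asked how male and female skin differ in their response to UVB, which draws pigment stem cells from the hair follicle into the epidermis. RNA was sequenced from 16 wild type mice (C57Bl/6 in the labels, C57Bl/6N in the study's text) aged 8 weeks, 1 library a mouse, whose hair follicles were at rest (telogen). The 4 UVB-irradiated males and the 4 UVB-irradiated females had received 3 exposures and were sampled 6 h after the last of them, on day 5. The 4 no-UVB males and the 4 no-UVB females had none. No group carried a transgene or a deletion, the irradiated mice were shaved for exposure, and animals whose skin had entered hair growth or burned were left out by the study.

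Lipoxygenases insert oxygen into polyunsaturated fatty acids such as arachidonic acid, and the products serve as signals or as building steps of other lipids. *Alox5* encodes 5-lipoxygenase, which with its helper protein FLAP, encoded by *Alox5ap*, starts leukotriene synthesis in white blood cells. *Alox12b* encodes 12R-lipoxygenase (12R-LOX) and *Aloxe3* encodes eLOX3, which act in succession on a linoleate-bearing ceramide of the upper epidermis and so help to build the lipid envelope of the skin barrier. *Alox12e* encodes the epidermal 12-lipoxygenase of the mouse, *Alox12* the platelet-type 12-lipoxygenase, *Alox15* the leukocyte-type 12/15-lipoxygenase and *Alox8* the 8-lipoxygenase of mouse skin.

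Of the 8 genes, 6 lay on chromosome 11 (GRCm39). *Aloxe3* (69016722 to 69039941, plus strand) and *Alox12b* (69041472 to 69060618, plus strand) were neighbours on the same strand with 1530 bases between them. *Alox8* (69074711 to 69088669, minus strand) followed 14092 bases further on. A further group on the same chromosome held *Alox12* (70132283 to 70146221), *Alox12e* (70206436 to 70213454) and *Alox15* (70234970 to 70242858), all on the minus strand. *Alox5* lay on chromosome 6 (116387032 to 116438139, minus strand) and *Alox5ap* on chromosome 5 (149196003 to 149227762, plus strand). Genes on the opposite strand overlapped *Alox5*, *Alox5ap*, *Alox12* and *Alox12b* in the annotation, and the counts used here kept the strands apart.

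The windows of 250 bases before the start of the canonical transcript of *Alox12b* and of *Aloxe3* are shown because these neighbouring genes had the largest rises of the family after UVB. The *Alox12b* window was chr11:69047565-69047814 and the *Aloxe3* window chr11:69016472-69016721, both on the plus strand of GRCm39, and capitals mark matches to TGANTCA or CACGTG, which read the same on both strands.
Alox12b: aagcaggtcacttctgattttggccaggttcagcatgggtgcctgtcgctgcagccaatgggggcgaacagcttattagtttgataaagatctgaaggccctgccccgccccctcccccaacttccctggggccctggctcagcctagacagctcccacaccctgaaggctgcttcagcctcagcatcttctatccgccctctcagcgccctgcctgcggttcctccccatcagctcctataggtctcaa
Aloxe3: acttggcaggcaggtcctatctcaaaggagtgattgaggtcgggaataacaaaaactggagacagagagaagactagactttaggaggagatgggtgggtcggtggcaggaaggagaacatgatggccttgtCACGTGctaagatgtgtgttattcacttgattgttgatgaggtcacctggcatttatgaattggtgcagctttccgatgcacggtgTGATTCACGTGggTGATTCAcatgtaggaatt
The *Aloxe3* window held 2 matches to TGANTCA, beginning 32 and 19 bases before the start, and 2 matches to CACGTG, beginning 118 and 27 bases before it, and a match of each motif overlapped by 2 bases. The *Alox12b* window held neither, and neither did those of the other 6 genes. The canonical starts of *Alox12b* (69047815) and *Alox5ap* (149201577) lay inside these genes, whose bounds begin at 69041472 and 149196003. The bases before those bounds were not searched. Among 21757 promoters of protein-coding genes of the same length, 6.18% held TGANTCA and 6.26% held CACGTG.

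Between 16495776 and 33404831 reads per mouse fell on genes, with a median of 21767339, so that even *Alox8*, the gene of the family with the fewest reads, had 13 to 50 counts in each mouse. All 8 genes passed the filter on low counts in every fit. The tissue held basal keratinocyte markers at a summed 4751 to 12049 CPM (counts scaled to a library of 1000000 reads) and granular keratinocyte markers at 7438 to 27551 CPM. It also held markers of sebaceous glands at 4383 to 9573 CPM, of macrophages at 1128 to 2188 CPM, of mast cells at 193 to 480 CPM and of skeletal muscle at 11380 to 21387 CPM. In such mixed tissue a lower count of cells of a type and less RNA in each of those cells cannot be told apart.

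Levels per length, given as RPKM (CPM divided by the exon length in kilobases) and averaged over the 16 mice, spanned a wide range. *Alox12e* was the highest at 99.8 RPKM and ranged from 62.4 to 187 RPKM. *Alox12b* followed at 24.1 RPKM (9.57 to 45.7 RPKM). *Alox5ap* at 11.9 RPKM (9.11 to 14.8 RPKM) and *Aloxe3* at 11.3 RPKM (6.71 to 17.2 RPKM) were neighbours in the order and overlapped. *Alox5* at 5.93 RPKM (3.57 to 9.69 RPKM) and *Alox15* at 5.83 RPKM (2.44 to 14.5 RPKM) overlapped as well. *Alox12* stood at 3.36 RPKM (2.44 to 4.46 RPKM), and *Alox8* was the lowest at 0.352 RPKM (0.207 to 0.619 RPKM). The order within groups differed from that of these means. In no-UVB females *Alox5ap* (13.3 RPKM) was above *Alox12b* (11.6 RPKM). *Alox5ap* was above *Aloxe3* without UVB, at 12.1 against 8.88 RPKM in males and 13.3 against 7.80 RPKM in females, and below it after UVB, at 10.5 against 15.6 RPKM and 11.8 against 13.1 RPKM. *Alox15* was above *Alox5* in UVB-irradiated females alone, at 9.33 against 5.07 RPKM. The order of *Alox5ap* and *Aloxe3* also depended on the length used, since with the canonical transcript in place of all exons the means were 16.5 RPKM and 24.0 RPKM.

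**Figure D1:**
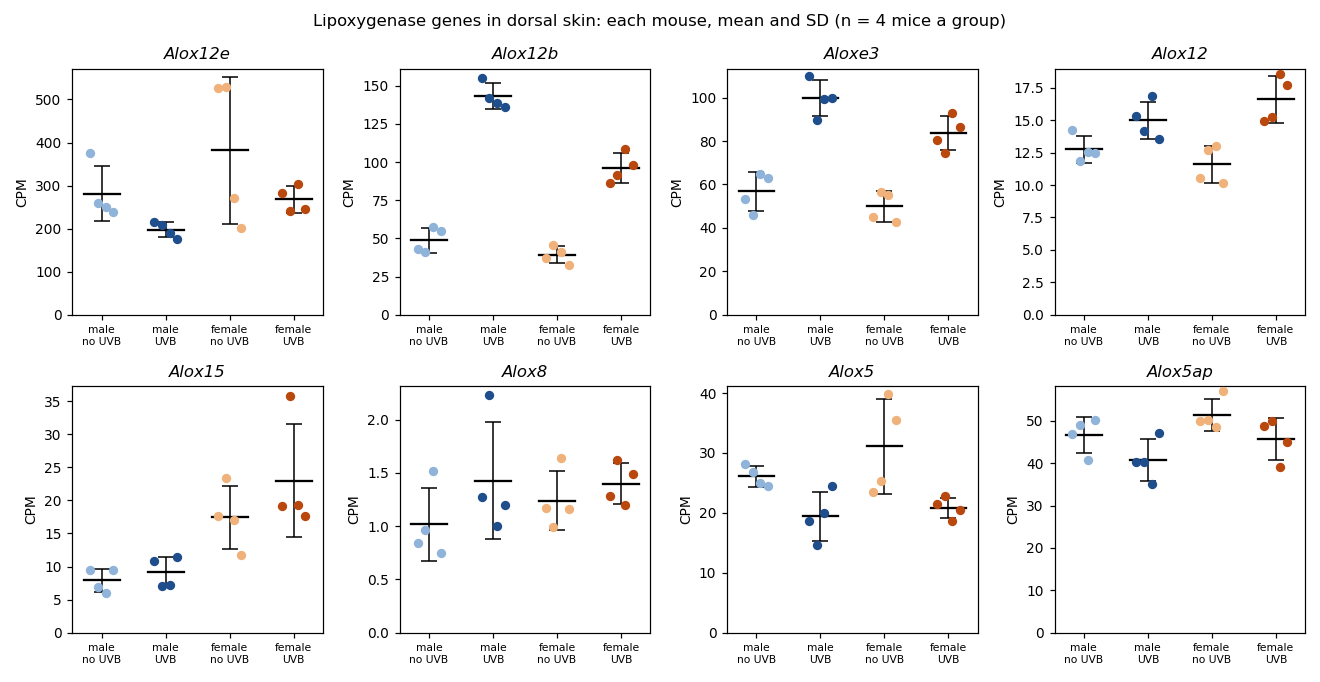
Level of each of the 8 genes in CPM (y axis, from 0, a scale of its own in each panel) in the 4 groups (x axis), with a point per mouse, a line at the mean and bars of 1 SD (n = 4 mice). In *Alox12b* and *Aloxe3* every UVB-irradiated mouse lies above every no-UVB mouse of its sex, and in *Alox15* every female lies above every male.

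The make-up of the family shifted after UVB in both sexes. Of the summed RPKM of the 7 enzymes, *Alox12e* held 72.8% ± 4.87 (SD, n = 4) in males without UVB and 49.8% ± 2.29 after it. In females its share was 76.4% ± 8.11 without UVB and 61.0% ± 3.17 after it. The share of *Alox12b* went from 10.9% ± 2.76 to 30.1% ± 0.216 in males and from 7.25% ± 2.11 to 18.3% ± 1.43 in females. The sum itself was 136 ± 21.8 RPKM in no-UVB males, 140 ± 8.49 RPKM in UVB-irradiated males, 172 ± 61.6 RPKM in no-UVB females and 155 ± 11.4 RPKM in UVB-irradiated females. The groups of each sex did not overlap in either share.

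**Figure D2:**
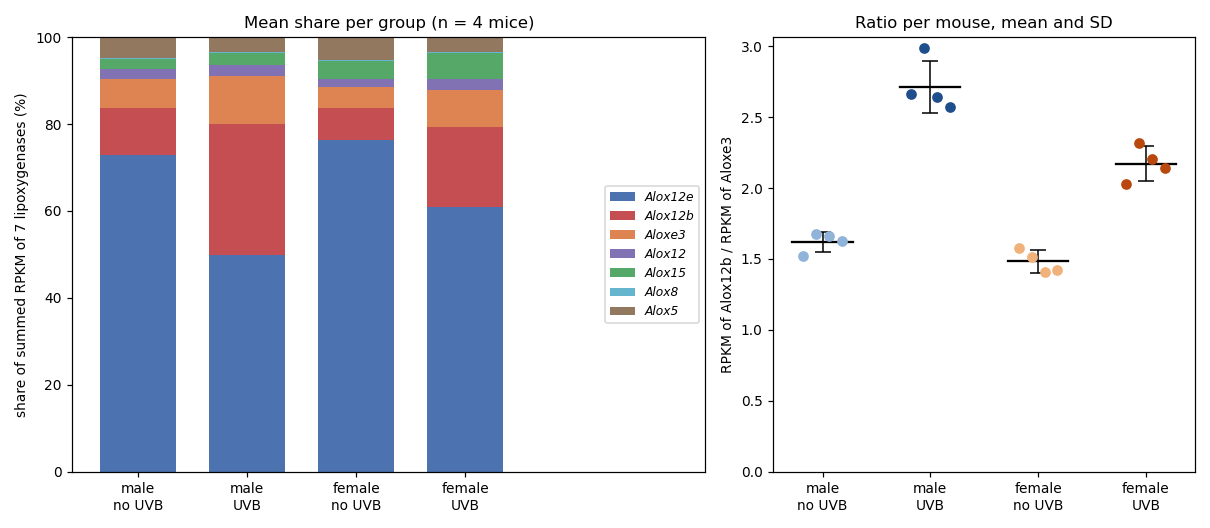
Left, mean share of each enzyme in the summed RPKM of the 7 lipoxygenases (y axis, percent) in each group (x axis, n = 4 mice), and right, ratio of *Alox12b* to *Aloxe3* RPKM in each mouse (y axis, from 0) with the mean and 1 SD. The *Alox12e* part shrinks from 72.8% to 49.8% in males and from 76.4% to 61.0% in females, and the ratio of every UVB-irradiated mouse lies above that of every no-UVB mouse.

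The 12R-LOX and eLOX3 genes rose after UVB in both sexes. In no-UVB males *Alox12b*, which encodes the enzyme of the earlier step, stood at 42.8, 40.8, 57.2 and 54.6 CPM. In UVB-irradiated males it stood at 155, 142, 139 and 136 CPM. The lowest irradiated male was above the highest control, and the rise was 2.98-fold (log2 fold change 1.57, SE 0.107, adjusted p = 2.07e-06). In females *Alox12b* was at 37.5, 45.6, 41.3 and 32.4 CPM without UVB. After UVB it was at 86.3, 91.8, 109 and 98.0 CPM. Again the groups did not overlap, with a 2.47-fold rise (log2 fold change 1.30, SE 0.110, adjusted p = 0.000126). *Alox12b* was the only gene of the family with a called log2 fold change past 1 in either sex. That stricter call was met, upward, by 4.08% of all genes tested in males and 1.63% in females, and downward by 3.31% and 1.08%.

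*Aloxe3*, which encodes the enzyme of the next step, moved the same way by a smaller amount. Its levels in no-UVB males were 53.1, 46.0, 64.9 and 63.2 CPM. In UVB-irradiated males they were 110, 89.9, 99.2 and 99.996 CPM. The groups stood apart, and the log2 fold change was 0.84 (SE 0.106, adjusted p = 9.36e-05). In females the levels were 44.8, 56.7, 55.2 and 42.9 CPM without UVB and 80.3, 74.7, 93.1 and 86.4 CPM after it. These groups did not overlap either, and the log2 fold change was 0.75 (SE 0.107, adjusted p = 0.00153). The ratio of *Alox12b* to *Aloxe3* RPKM was 1.62 ± 0.0709 (SD, n = 4) in males without UVB and 2.71 ± 0.184 after it. In females it was 1.48 ± 0.0796 and 2.17 ± 0.122. Without UVB the 8 ratios lay between 1.41 and 1.67, and after UVB the 8 ratios lay between 2.03 and 2.98. The size of this ratio depends on the gene lengths used, while its relative rise does not. Summed granular keratinocyte markers moved with these genes, from 7855 to 11508 CPM in no-UVB males to 19921 to 27551 CPM in UVB-irradiated males and from 7438 to 10723 CPM to 11940 to 16274 CPM in females. Of the 11 markers measured, 10 were called higher in males and 8 in females, none was called lower, and their part in the rise of *Alox12b* and *Aloxe3* was not tested.

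**Figure D3:**
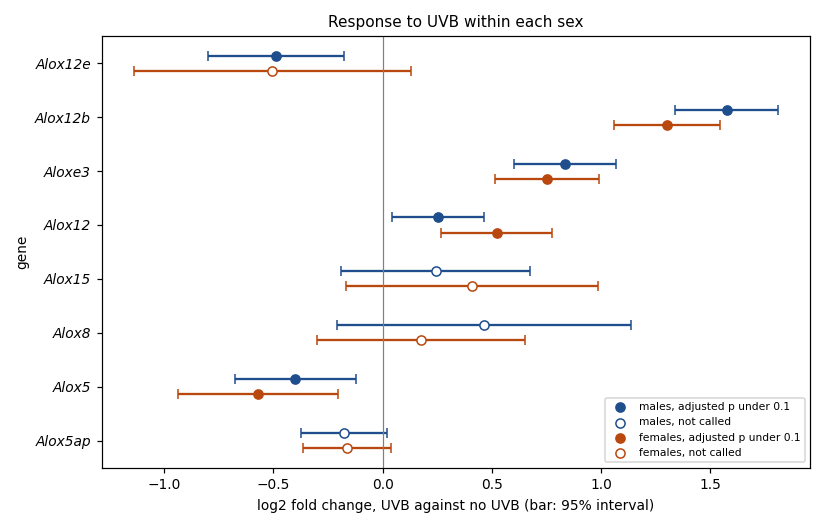
Log2 fold change of UVB-irradiated against no-UVB mice (x axis) for each gene (y axis) in males and females, with bars of the 95% interval and filled points where the adjusted p was under 0.1. *Alox12b*, *Aloxe3* and *Alox12* lie above 0 with filled points in both sexes, *Alox5* lies below 0 in both, and *Alox12e* is filled in males alone.

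Across the whole family, 3 of the 8 genes were called higher and 2 lower in males, where 29.0% of all genes tested were called higher and 30.5% lower. In females 3 of 8 were called higher and 1 lower, beside 12.8% and 10.6% of all genes. On the log2 scale the median member changed by 0.25 in males and 0.29 in females, and the median of all genes by -0.02 and 0.00.

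The other genes that make and carry the barrier lipids of this route moved widely with *Alox12b* and *Aloxe3*. A list of 18 such genes, which leaves out the 2 lipoxygenases, had 17 called higher in males and 16 in females, with none called lower. The median of the list on the log2 scale was 1.05 for males and 0.69 for females. *Degs2*, which encodes the hydroxylase that makes phytoceramides, rose from 2.31 ± 1.18 to 39.1 ± 11.4 CPM in males (log2 fold change 4.08, SE 0.346, adjusted p = 3.73e-05) and from 4.89 ± 3.19 to 16.6 ± 5.18 CPM in females (1.78, SE 0.412, adjusted p = 0.0187). *Cers3*, the synthase of ceramides with very long chains, had log2 fold changes of 1.92 (SE 0.117) and 1.15 (SE 0.130) in males and females. *Sdr9c7*, whose dehydrogenase acts after eLOX3, had 1.71 (SE 0.113) and 1.02 (SE 0.109). *Pnpla1*, which encodes the transacylase that puts linoleate on the ceramide before 12R-LOX acts, had 1.69 (SE 0.145) and 1.38 (SE 0.130). The adjusted p of these 3 genes was at most 0.000461 in either sex. Of 8 sebaceous gland markers, 6 were called higher in males and 5 in females and none lower, beside the granular markers given above, and the part of either in the rise of this list was not tested. The exceptions in the list were *Ephx2*, a soluble epoxide hydrolase, with -0.22 (SE 0.108) and 0.02 (SE 0.249), and in females *Acer1*, a ceramidase of the upper epidermis, with 0.23 (SE 0.114).

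**Figure D4:**
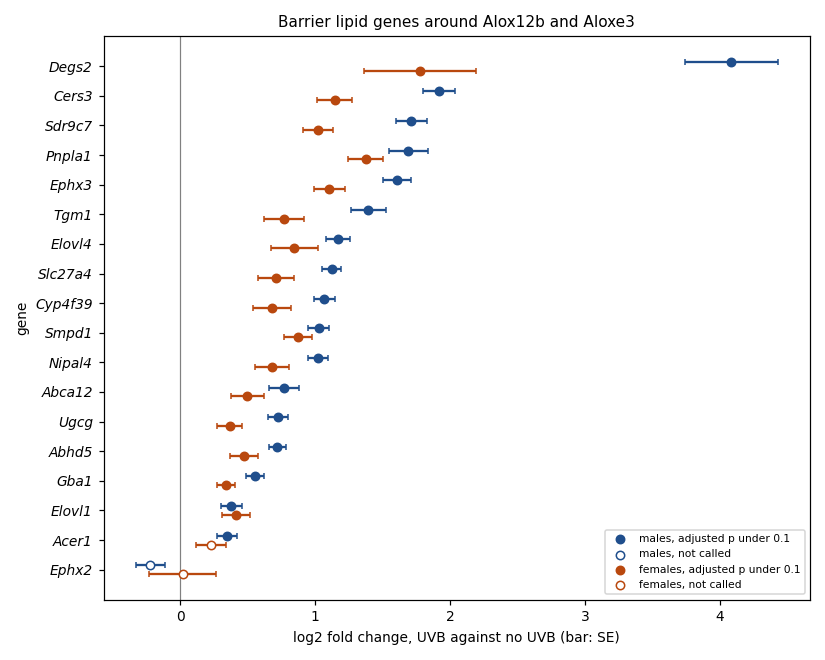
Log2 fold change of UVB-irradiated against no-UVB mice (x axis, bars of 1 SE) for the 18 barrier lipid genes (y axis, ordered by the male value) in males and females, with filled points where the adjusted p was under 0.1. All 18 points but that of *Ephx2* lie above 0 in males, and *Ephx2* and *Acer1* are the open points.

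Of the 12-lipoxygenases, *Alox12* rose and *Alox12e* fell in males. *Alox12*, the platelet-type gene, was at 14.3, 11.8, 12.5 and 12.4 CPM in males without UVB and at 15.4, 14.2, 16.8 and 13.6 CPM after it. The ranges overlapped, since the highest control exceeded the lowest 2 irradiated males, and the log2 fold change was 0.25 (SE 0.0962, adjusted p = 0.0442). This call was lost without UVB-irradiated male 3 (adjusted p = 0.129) and with upper quartile scaling (adjusted p = 0.138). In females *Alox12* was at 10.6, 12.7, 13.0 and 10.2 CPM without UVB and at 14.9, 15.2, 18.6 and 17.7 CPM after it. Here the groups did not overlap, and the log2 fold change was 0.52 (SE 0.115, adjusted p = 0.0132). Summed platelet markers were 58.2 to 71.0 CPM in no-UVB males, 54.6 to 69.5 CPM in UVB-irradiated males, 38.0 to 69.2 CPM in no-UVB females and 39.3 to 59.3 CPM in UVB-irradiated females. Those ranges overlapped within each sex. Of the 6 platelet markers 2 were tested, with 1 called higher in males, none in females and none lower. The part of platelets or of keratinocytes in the rise of *Alox12* was not tested.

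*Alox12e*, the epidermal gene with the highest level of the family, was at 376, 259, 250.1 and 239 CPM in no-UVB males. In UVB-irradiated males it was at 214, 209, 189 and 176 CPM. All irradiated males were below all controls, and the log2 fold change was -0.49 (SE 0.14, adjusted p = 0.0146). The call was lost with all 16 mice in a single fit (adjusted p = 0.106). Without no-UVB male 1, the highest of its group, the log2 fold change was -0.32 (adjusted p = 0.00885). In females *Alox12e* was at 526, 529.6, 272 and 201 CPM without UVB and at 283, 241, 303 and 244 CPM after it. The no-UVB females ranged from below to above all of the irradiated females, and the log2 fold change of -0.50 (SE 0.283, adjusted p = 0.264, 95% interval -1.14 to 0.13) did not pass the threshold. With each female left out in turn it ranged from -0.72 (adjusted p = 0.0623, without no-UVB female 4) to -0.31 (adjusted p = 0.529 without no-UVB female 2 and 0.497 without no-UVB female 1).

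*Alox5*, which encodes the enzyme that begins the leukotriene route, fell after UVB in both sexes. It was at 28.1, 26.7, 25.0 and 24.5 CPM in males without UVB and at 18.6, 14.7, 20.01 and 24.6 CPM after it. A single irradiated male reached the range of the controls, and the log2 fold change was -0.40 (SE 0.126, adjusted p = 0.0206). In females it was at 23.6, 25.4, 39.8 and 35.6 CPM without UVB and at 21.5, 22.8, 18.7 and 20.5 CPM after it. The groups did not overlap, and the log2 fold change was -0.57 (SE 0.164, adjusted p = 0.0429). Without UVB-irradiated female 3 the adjusted p was 0.116. *Alox5ap*, which encodes the helper protein, was at 40.7 to 50.2 CPM in no-UVB males, 35.2 to 47.2 CPM in UVB-irradiated males, 48.6 to 57.0 CPM in no-UVB females and 39.1 to 50.01 CPM in UVB-irradiated females. These groups overlapped, and the log2 fold changes of -0.18 (SE 0.0902, adjusted p = 0.122, 95% interval -0.37 to 0.02) in males and -0.16 (SE 0.0909, adjusted p = 0.259, 95% interval -0.36 to 0.04) in females did not pass. With mice left out in turn the values ranged from -0.25 to -0.11 in males, where the call was gained without UVB-irradiated male 4 or no-UVB male 3, and from -0.21 to -0.09 in females. Summed macrophage markers were 1456 to 1805 CPM and 1129 to 1526 CPM in males without and after UVB, and 1220 to 2188 CPM and 1128 to 1561 CPM in females. Of the 11 macrophage markers, 3 were called higher and 5 lower in males, and none higher and 1 lower in females. Summed Langerhans cell markers were 1813 to 2284 CPM and 1219 to 1566 CPM in males and 1977 to 2940 CPM and 1904 to 2482 CPM in females, with 1 of 5 called higher and 4 lower in males and 1 lower in females. Summed mast cell markers were 193 to 246 CPM and 232 to 266 CPM in males and 253 to 380 CPM and 328 to 480 CPM in females, with 3 of 8 called higher and 1 lower in males and 5 higher and none lower in females. Summed neutrophil markers were at 10.8 to 18.7 CPM and 55.1 to 162 CPM in males and 10.9 to 16.8 CPM and 20.5 to 31.3 CPM in females, with 5 of the 7 tested called higher in males and 2 of the 5 tested in females, and none lower. The part of these cell types in the fall of *Alox5* was not tested.

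Further along the leukotriene route the calls went in both directions. Of 14 genes listed, 11 were tested in males, with 3 called higher and 7 lower, and 12 in females, with 2 higher and 3 lower. The shares over all genes tested were 29.0% higher and 30.5% lower in males, and 12.8% and 10.6% in females. *Ltc4s*, the synthase of leukotriene C4, had a log2 fold change of -0.94 (SE 0.142, adjusted p = 0.000239) in males and -0.70 (SE 0.267, adjusted p = 0.106) in females. *Mgst2*, a microsomal transferase that can carry out the same step, rose by 1.45 (SE 0.121, adjusted p = 4.71e-06) in males and 0.46 (SE 0.160, adjusted p = 0.0785) in females, and this difference between the sexes passed the interaction test (0.98, SE 0.210, adjusted p = 0.0253). *Pla2g4a*, the phospholipase that frees arachidonic acid, fell by 0.36 (SE 0.0986) in males and by 0.30 (SE 0.0923) in females. *Abcc4*, an exporter that carries leukotrienes, fell by 0.62 (SE 0.0892) and by 0.26 (SE 0.0708), and the difference between the sexes was called (-0.37, SE 0.116, adjusted p = 0.0868). *Ptgr1*, a reductase that inactivates leukotriene B4, rose by 0.56 (SE 0.0995) and 0.27 (SE 0.0890). *Abcc1*, another exporter, rose in males by 0.26 (SE 0.0576), and *Dpep3*, a dipeptidase gene below 1 CPM in every group mean, fell in females by 1.33 (SE 0.445).

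*Alox15* and *Alox8* gave no call after UVB in either sex with all mice and no block. *Alox15* was at 9.46, 6.86, 6.02 and 9.40 CPM in males without UVB and 10.9, 7.08, 7.23 and 11.4 CPM after it. In females it was at 17.6, 23.4, 17.0 and 11.8 CPM without UVB and 19.2, 35.7, 19.3 and 17.6 CPM after it. The groups overlapped within each sex, with log2 fold changes of 0.24 (SE 0.196, adjusted p = 0.322, 95% interval -0.19 to 0.68) in males and 0.41 (SE 0.258, adjusted p = 0.320, 95% interval -0.17 to 0.99) in females. With mice left out in turn the values ranged from 0.14 (without UVB-irradiated male 4 or 1) to 0.34 in males and from 0.10 (without UVB-irradiated female 2) to 0.58 in females. With the replicate number as a block, *Alox15* was called in males (adjusted p = 0.0999) and females (adjusted p = 0.0685). *Alox8* was at 0.745 to 1.52 CPM in no-UVB males, 1.003 to 2.23 CPM in UVB-irradiated males, 0.991 to 1.64 CPM in no-UVB females and 1.20 to 1.62 CPM in UVB-irradiated females. At 13 to 50 counts a mouse its intervals were wide, from -0.21 to 1.14 in males and from -0.30 to 0.65 in females on the log2 scale. The male log2 fold change of 0.46 (SE 0.307, adjusted p = 0.227) ranged, with each male left out in turn, from 0.20 (adjusted p = 0.580, without UVB-irradiated male 2) to 0.75 (adjusted p = 0.0670, without no-UVB male 3). The female value of 0.18 (SE 0.215, adjusted p = 0.626) ranged from 0.08 (without no-UVB female 2) to 0.35 (without no-UVB female 3).

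Receptors for lipoxygenase products and genes that handle lipid hydroperoxides were described beside the enzymes. Of the 14 receptor genes, 12 were tested in each sex, with 4 called higher and 2 lower in males and 3 higher and none lower in females. Of all genes tested, 29.0% were called higher and 30.5% lower in males, and 12.8% and 10.6% in females. The leukotriene B4 receptor genes *Ltb4r2* and *Ltb4r1* rose by 1.24 (SE 0.101) and 0.998 (SE 0.0747) in males, with adjusted p of 3.96e-06 and 2.54e-06. In females they had 0.44 (SE 0.214, adjusted p = 0.202) and 0.25 (SE 0.147, adjusted p = 0.291). The difference between the sexes passed for *Ltb4r1* (0.74, adjusted p = 0.0306) and for *Ltb4r2* (0.79, adjusted p = 0.0987), and both genes overlap another annotated gene on their own strand. Of the 7 neutrophil markers tested, 3 were called higher and none lower in the same interaction test. The part of neutrophils in the rise of these receptor genes was not tested. *Gpr37*, a receptor gene linked to lipid mediators, rose by 0.62 (SE 0.296, adjusted p = 0.0997) in males and 0.55 (SE 0.196, adjusted p = 0.0857) in females. The chemerin and resolvin receptor gene *Cmklr1* fell by 0.53 (SE 0.14) and *Ppara*, a nuclear receptor gene, by 0.33 (SE 0.124) in males. The nuclear receptor gene *Ppard* rose by 0.57 (SE 0.0688) in males and 0.25 (SE 0.0866) in females, and *Pparg* rose by 0.33 (SE 0.105) in females.

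Of the 7 genes for lipid hydroperoxides, 3 were called higher and 2 lower in males and 2 higher and none lower in females. Beside these counts, 29.0% of all genes were called higher and 30.5% lower in males, and 12.8% and 10.6% in females. *Slc7a11*, the cystine importer that feeds glutathione synthesis, rose from 0.831 ± 0.284 to 7.24 ± 3.08 CPM in males (log2 fold change 3.13, SE 0.373, adjusted p = 9.62e-05) and had 1.09 ± 0.154 and 1.33 ± 0.336 CPM in females (0.28, SE 0.228, adjusted p = 0.451). That difference passed the interaction test (2.84, SE 0.456, adjusted p = 0.00739), as did those of *Prdx6* (-0.60, SE 0.120, adjusted p = 0.0193) and *Gpx4* (-0.41, SE 0.108, adjusted p = 0.0486), males less females. *Lpcat3*, which puts polyunsaturated chains into phospholipids, rose by 0.42 (SE 0.0768) in males and 0.46 (SE 0.159) in females. *Gpx1*, a glutathione peroxidase, rose by 0.37 (SE 0.0865) in males, whereas *Aifm2* and *Prdx6*, which limit lipid peroxides, fell by 0.45 (SE 0.0732) and 0.41 (SE 0.0802) there. *Gpx4*, the peroxidase that reduces lipid hydroperoxides in membranes, rose by 0.35 (SE 0.0840) in females and had -0.05 (SE 0.0704) in males.

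The responses of the sexes were then compared directly. In the interaction of UVB and sex, 0 of the 8 genes were called by edgeR, 0 had an unadjusted p under 0.05 and 0 were called by DESeq2's Wald test, while 2.75% of all genes tested had a higher and 4.25% a lower response in males. The difference in response, males less females, was 0.26 for *Alox12b* (SE 0.162, adjusted p = 0.376) with a 95% interval of -0.08 to 0.60. For *Aloxe3* it was 0.07 (95% interval -0.27 to 0.41) and for *Alox12* it was -0.28 (SE 0.149, adjusted p = 0.294, 95% interval -0.60 to 0.03). The widest intervals were those of *Alox8* (-0.52 to 1.09), *Alox15* (-0.96 to 0.61) and *Alox12e* (-0.75 to 0.76), and those of *Alox5* (-0.32 to 0.63) and *Alox5ap* (-0.31 to 0.26) also included 0. Among the 18 barrier genes 3 were called, all with a larger rise in males, namely *Degs2* (2.30, SE 0.600), *Cers3* (0.76, SE 0.186) and *Sdr9c7* (0.68, SE 0.164), with adjusted p of 0.0545, 0.0413 and 0.0392. Of the 11 granular keratinocyte markers 2 were called higher in this test and none lower, with a median of 0.61. Their part in the larger male rise was not tested.

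Levels in males and females differed most in *Alox15*. As given above, every male was below every female of the same treatment, and the highest male of all, at 11.4 CPM, was below the lowest female, at 11.8 CPM. Without UVB the means were 7.94 ± 1.76 CPM (SD, n = 4) in males and 17.4 ± 4.75 CPM in females, 2.21-fold lower in males (log2 fold change -1.14, SE 0.263, adjusted p = 0.0153). After UVB they were 9.15 ± 2.30 and 23.0 ± 8.54 CPM, 2.50-fold lower in males (log2 fold change -1.32, SE 0.259, adjusted p = 0.00434). The call held without each of the 16 mice in turn in both comparisons. Some markers of cell types that can carry *Alox15* differed between the sexes too. Summed eosinophil markers were 4.28 to 8.44 CPM in males and 8.89 to 17.6 CPM in females. Of the 4 markers only *Siglecf* and *Ccr3* were tested, and the granule gene *Epx* was at 0 in every mouse. Both tested genes were called lower in males without UVB (log2 fold changes -0.84 and -0.85, adjusted p = 0.0451 and 0.0531). They were also called lower after it (-0.92 and -1.07, adjusted p = 0.0169 and 0.0108). Of 8 mast cell markers, 4 were called lower in males without UVB and 6 after it. Summed macrophage markers of the sexes overlapped at both treatments, with 2 of 11 called lower in males without UVB, 1 after it and none higher, and the part of these cells in the *Alox15* difference was not tested.

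**Figure D5:**
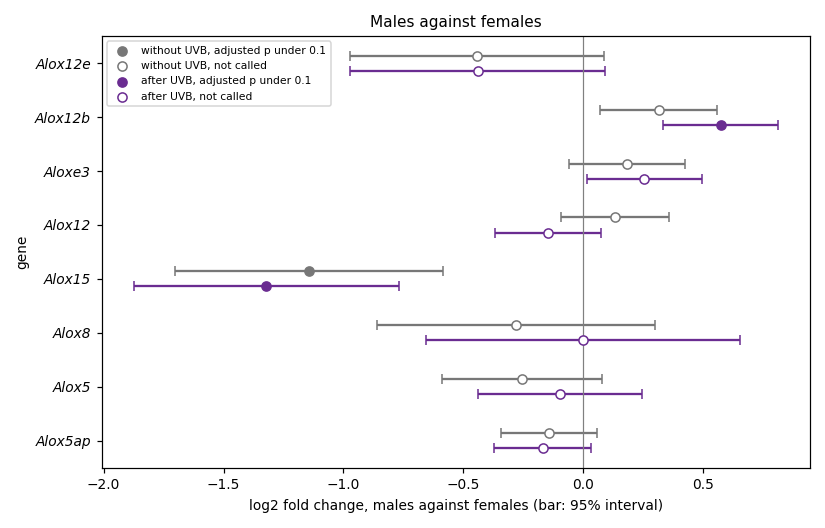
Log2 fold change of males against females (x axis) for each gene (y axis) without UVB and after UVB, with bars of the 95% interval and filled points where the adjusted p was under 0.1. *Alox15* is filled at -1.14 and -1.32, *Alox12b* is filled after UVB at 0.57, and the other points are open.

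*Alox12b* was higher in males than in females after UVB, at 143 ± 8.33 against 96.2 ± 9.61 CPM with no overlap (log2 fold change 0.57, SE 0.113, adjusted p = 0.00385). Summed granular keratinocyte markers were 19921 to 27551 CPM in these males and 11940 to 16274 CPM in these females, with 7 of the 11 called higher in males and 1 lower, and their part in this difference was not tested. Without UVB the means were 48.9 ± 8.25 and 39.2 ± 5.58 CPM, the groups overlapped, and the difference of 0.32 (SE 0.116, adjusted p = 0.113, 95% interval 0.07 to 0.56) did not pass. It was called without no-UVB female 2, no-UVB male 1 or no-UVB male 2 (adjusted p = 0.0947, 0.0923 and 0.0707), and was 0.22 (adjusted p = 0.296) without no-UVB female 4. The unadjusted interval of *Aloxe3* after UVB, 0.02 to 0.49, also lay above 0, but its difference of 0.26 (SE 0.113, adjusted p = 0.129) did not pass the correction. That of *Aloxe3* was called without UVB-irradiated female 3 or no-UVB male 2 (adjusted p = 0.0933 and 0.0929), and its highest adjusted p with a mouse left out was 0.296. Of the 18 barrier genes, 13 were called higher in males after UVB and *Ephx2* lower, and without UVB none of the 18 was called. *Alox12e* had log2 fold changes of -0.44 (SE 0.249, adjusted p = 0.322) without UVB and -0.44 (SE 0.250, adjusted p = 0.243) after it, and after UVB the highest male, at 214 CPM, was below the lowest female, at 241 CPM. Without UVB the *Alox12e* difference ranged, with mice left out in turn, from -0.67 (adjusted p = 0.0540, without no-UVB female 4) to -0.25 (adjusted p = 0.635, without no-UVB female 1). Between the sexes 0 of 8 genes were called higher and 1 lower in males without UVB, beside 7.21% and 4.58% of all genes. In that comparison 1 of the 8 was higher at an unadjusted p under 0.05 and 1 by DESeq2's Wald test, *Alox12b* in each case. After UVB 1 of 8 was called higher and 1 lower, beside 12.8% and 12.5%.

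The genes with the pattern most like each member over the 16 mice were sought by Pearson's r of log2 CPM among 15117 genes with a mean of at least 1 CPM. The points share the 4 groups, so r over all mice also reflects group differences, and r of the deviations from the group means is given beside it. *Alox12b* was nearest to *Pnpla1* (r = 0.992, and 0.903 within groups), *Lypd5* (0.992 and 0.882) and *Lgalsl* (0.992 and 0.868). *Aloxe3* was nearest to *Il1rn*, the interleukin-1 receptor antagonist gene (0.981 and 0.863), *Fndc9* (0.979 and 0.833) and *Alox12b* itself (0.979 and 0.901). Much further down the order, r over all mice was still 0.969 for *Alox12b* and 0.948 for *Aloxe3*, so many other genes were nearly as near. *Alox12e* was nearest to *Mill1* (0.923 and 0.927), *Ccl27a*, which encodes a keratinocyte chemokine (0.895 and 0.834), and *Abtb1* (0.886 and 0.853). *Alox15* was nearest to *Rab37* (0.924 and 0.795), *Inpp5j* (0.920 and 0.760) and *Rab44* (0.919 and 0.758). *Alox12* was nearest to *Hspb1*, a small heat shock protein gene (0.909 and 0.750), *1500015A07Rik* (0.883 and 0.762) and *Gk5* (0.881 and 0.710). *Alox5* was nearest to *Pank2* (0.929 and 0.854), *Nin* (0.923 and 0.807) and *Tdrd7* (0.920 and 0.83). *Alox5ap* was nearest to *H2-M3* (0.932 and 0.905), *Hcls1*, a gene of blood cells (0.925 and 0.857), and *Pcca* (0.902 and 0.872). For *Alox8*, with its low counts, the nearest genes were *Trmt11* (0.739 and 0.714), *Hps6* (0.739 and 0.667) and *Ccl2* (0.720 and 0.694). Among the 8 members themselves, *Alox12b* and *Aloxe3* had the highest r, and *Alox5* and *Alox5ap* had 0.661 and 0.360 within groups.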

How the data were processed

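Poly(A) RNA of whole dorsal skin was made by the authors into strand-specific libraries, and STAR counts on GRCm39 (submitters' processing notes, versions not given in the sources used here) were deposited as whole-number counts per Ensembl gene, without normalization. Of the 3 counts per gene, that of the kit's strand was used, since the other strand held 3.63 to 4.23% of gene reads. Symbols and positions came from GENCODE M39, which holds 54749 of the 55359 identifiers. No table was left out, and libraries of a group differed by more than sampling noise (chi-square per degree of freedom 9.54 to 98.3).

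Counts were tested in R 4.3.3 with edgeR 4.0.16: filterByExpr, TMM, robust quasi-likelihood F-test, with Benjamini-Hochberg adjustment over all genes tested and a call at an adjusted p under 0.1. Each UVB response was fitted on its own sex (8 mice), whereas the interaction and the sex differences used 16 mice, all without covariates. The stricter call also required a log2 fold change past 1. The SE was the log2 fold change divided by the root of F, and 95% intervals used the matching t quantile. CPM used the TMM of all 16 mice, RPKM the union of exons, and log2 CPM a prior count of 2. The planned permutation test of members under the filter was not needed. Alternatives were counts without regard to strand, DESeq2 1.42.0 size factors, upper quartile scaling, DESeq2's Wald test, filters of at least 1 count in all or 10 counts in every mouse, a block for the replicate number, an adjusted p under 0.05, all 16 mice in a single fit, each mouse left out, plain library totals and, chosen after seeing the data, canonical transcript lengths. The procedure was tested on simulated data.

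The members, the lists (leukotriene pathway, barrier lipid genes around 12R-LOX, receptors, lipid hydroperoxide genes and cell type markers) and the tests were chosen with earlier results of these data known. Named were all members, the called genes of each pathway list, up to 3 per direction and sex by size of log2 fold change, and the 3 genes most like each member, while *Ephx2*, *Acer1* and the eosinophil genes were chosen after their values were seen. Over the genes kept by the filter, deviations of same-numbered mice of a sex had correlations of -0.115 to 0.217. Such correlations cannot exclude a pairing of the mice, and whether the numbers pair mice is not known.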

Additional observations from a re-analysis of the deposited data

Results flagged for a closer look

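In 2 of the 32 sets of 4 mice (8 genes in 4 groups), the gap between the highest mouse and the next exceeded Dixon's 95% critical value, and chance flags about 1 in 20 such sets. *Alox12e* was at 376 CPM in no-UVB male 1, with the other 3 of its group at 239 to 259 CPM. Without that mouse the male log2 fold change of *Alox12e* was -0.32 and still called. *Alox15* was at 35.7 CPM in UVB-irradiated female 2, with the others of its group at 17.6 to 19.3 CPM. Without that mouse the female log2 fold change of *Alox15* after UVB was 0.10, the interaction 0.12, and the difference between the sexes after UVB -1.02 and still called.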

How the results depend on the processing

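The calls of *Alox12b* and *Aloxe3* after UVB in both sexes, of *Alox12* in females, of *Alox5* in males, of *Alox15* in both sex comparisons and of *Alox12b* between the sexes after UVB kept their direction and an adjusted p under 0.1 in every fit, whereas those of *Alox12* and *Alox12e* in males and *Alox5* in females were each lost under the settings named beside them. Requiring a log2 fold change past 1 left 1 gene higher and 0 lower in males, 1 and 0 in females, and 0 higher between the sexes after UVB. Leaving out mice in turn gave 0 to 2 genes lower in females after UVB. Between the sexes without UVB, 1 gene was called higher in males by DESeq2's Wald test, and leaving out mice gave 0 to 1 higher and 1 to 2 lower. After UVB, 2 were called higher with DESeq2 size factors and with the Wald test, and leaving out mice gave 1 to 2 higher and 1 to 2 lower.

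With the replicate number as a block, 2 genes were called lower in males than in females after UVB, *Alox15* and *Alox5ap*, the latter at -0.17 with an adjusted p of 0.0967. The block also gave calls after UVB for *Alox15* in males (0.0999) and females (0.0685). No call of a member was lost under it. *Alox5ap* in males was called with the block (0.0388), upper quartile scaling (0.0349), all 16 mice in a single fit (0.0997), and without UVB-irradiated male 4 (0.0313) or no-UVB male 3 (0.0567). Its log2 fold change ranged from -0.25 to -0.11 with mice left out, the latter without UVB-irradiated male 3 (adjusted p = 0.314). *Alox8* in males was called without no-UVB male 3 (0.0670), whereas without UVB-irradiated male 2 its adjusted p was 0.580.

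The sign changed only for values that were not called, and the cause was not tested. The interaction of *Alox5ap* was 0.0171 without regard to strand, 0.0031 with DESeq2 size factors and with the Wald test, and -0.107 to 0.0338 with mice left out. That of *Alox12e* was -0.0128 with upper quartile scaling, -0.0587 with the replicate block, and -0.191 to 0.233 with mice left out. With mice left out, that of *Alox15* was -0.334 to 0.123, that of *Aloxe3* -0.0189 to 0.153, and the sex difference after UVB of *Alox5* -0.226 to 0.0113. The sex difference after UVB of *Alox8* was -0.0414 with upper quartile scaling, -0.0102 with at least 1 count, -0.0127 with at least 10 counts in every mouse, and -0.264 to 0.127 with mice left out.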
